A study of Mus musculus with 40 samples.

Results

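Genes of fatty acid and triglyceride synthesis were examined in liver and kidney of phenobarbital (PB)-treated and control mice. The set was named by symbol and held 38 genes, of which 37 had a probe set among the 18193 genes named on the array. Acsl1 was not analysed here. Each gene was read from its probe set of highest mean signal over the 40 arrays, and Scd1 was read from both of its probe sets. The animals were male B6C3F1/Crl mice, a cross between C57BL/6 and C3H/He, 29 to 32 days old on arrival and given 5 days to acclimatise. PB, an anticonvulsant that induces drug-metabolising enzymes in rodent liver, was dissolved at 0.05% (w/v) in the water that 10 animals drank over 28 days, and another 10 animals received no PB. Liver and kidney of every animal were profiled on Affymetrix Mouse430_2 arrays, which made 4 groups of 10 arrays: PB livers, control livers, PB kidneys and control kidneys. PB animals are numbered 11 to 20 and controls 1 to 10, and a number stands for 1 animal in both tissues. The groups cover 1 dose, 1 time and 1 sex of 1 hybrid strain, and each array measured RNA of whole tissue.

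Cells make fatty acids from citrate, which ATP citrate lyase (Acly) splits to give acetyl-CoA. Acetyl-CoA carboxylase (Acaca, Acacb) and fatty acid synthase (Fasn) then build the chain with NADPH as reductant, elongases (Elovl genes) and desaturases (Scd and Fads genes) modify it, and acyltransferases (Gpam, Agpat genes), lipins and Dgat enzymes join it to glycerol as triglyceride, which is kept in lipid droplets. In liver this pathway is known for its response to feeding and insulin, through the transcription factors SREBP-1c (from Srebf1) and ChREBP (from Mlxipl).

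The promoters of 4 genes are shown because results described further on turn on these genes: Lpin1 in liver, Fasn and Thrsp in kidney, and Elovl5, which moved in opposite directions in the tissues. The sequences are RefSeq windows of the GRCm38.p6 build, from 250 bases before to 50 bases after the annotated start of the gene, 5′ to 3′ on the strand of the gene. Capitals mark matches, on either strand, to 5 motifs: the sterol regulatory element core TCACNCCAC, the E-box CACGTG, the CCAAT box, the nuclear receptor motif AGGTCA and the GC box GGGCGG. The windows lie at chr12:16610917-16611216 (Lpin1, minus strand), chr11:120824498-120824797 (Fasn, minus strand), chr7:97417501-97417800 (Thrsp, minus strand) and chr9:77917115-77917414 (Elovl5, plus strand).
Lpin1: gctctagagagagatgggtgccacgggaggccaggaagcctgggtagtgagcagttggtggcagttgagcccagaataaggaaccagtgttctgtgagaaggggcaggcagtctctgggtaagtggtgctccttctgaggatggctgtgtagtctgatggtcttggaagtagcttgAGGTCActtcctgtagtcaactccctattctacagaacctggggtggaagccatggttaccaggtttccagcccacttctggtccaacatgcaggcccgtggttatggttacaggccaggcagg
Fasn: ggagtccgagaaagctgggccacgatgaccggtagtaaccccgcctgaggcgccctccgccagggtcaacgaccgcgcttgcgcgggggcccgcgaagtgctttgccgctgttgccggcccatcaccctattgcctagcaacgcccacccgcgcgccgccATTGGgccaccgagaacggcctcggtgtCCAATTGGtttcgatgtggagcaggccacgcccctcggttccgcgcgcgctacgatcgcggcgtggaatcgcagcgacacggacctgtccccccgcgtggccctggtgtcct
Thrsp: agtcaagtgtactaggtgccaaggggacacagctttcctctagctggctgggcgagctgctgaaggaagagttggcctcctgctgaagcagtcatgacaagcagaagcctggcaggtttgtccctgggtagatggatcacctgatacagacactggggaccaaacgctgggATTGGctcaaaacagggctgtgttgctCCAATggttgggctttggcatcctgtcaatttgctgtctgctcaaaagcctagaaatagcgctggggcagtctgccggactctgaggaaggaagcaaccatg
Elovl5: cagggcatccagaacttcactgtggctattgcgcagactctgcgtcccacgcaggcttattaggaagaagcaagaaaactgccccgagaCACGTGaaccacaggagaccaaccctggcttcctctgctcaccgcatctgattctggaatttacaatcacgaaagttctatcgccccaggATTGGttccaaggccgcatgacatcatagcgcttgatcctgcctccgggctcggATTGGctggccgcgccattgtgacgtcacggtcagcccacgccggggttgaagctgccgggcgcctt
The Lpin1 window held 1 AGGTCA motif, whose first base is at position -74 from the start. Fasn held 3 CCAAT matches, of which the pair nearest the start overlapped on opposite strands. Thrsp held 2 CCAAT matches, and Elovl5 held 2 CCAAT matches and 1 E-box. Windows were at hand for 31 of the 37 genes, with 44 windows in all. A CCAAT box was found in 50% of these 44 windows and in 37.4% of all 32851 promoter windows, AGGTCA in 25% and 16.3%, the GC box in 54.5% and 35.7%, the E-box in 11.4% and 7.15%, and the sterol regulatory element core in 2.27% (the Mlxipl window) and 1.24%. A match describes the letters in the window and says nothing of binding. Fads1, Scd1, Scd2, Dgat1, Dgat2 and Elovl3 had no entry.

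Values are MAS5 signals, a linear intensity that the authors scaled to a trimmed mean of 150 on each array, so a gene is compared between groups and not with another gene. The median signal ranged from 33.6 to 37.2 in PB livers, 32.9 to 37 in control livers, 30 to 34.1 in PB kidneys and 31.4 to 34.9 in control kidneys. Cyp2b10, a cytochrome P450 that PB induces through the receptor CAR, checked the labels: it measured 9731 to 12774 in PB livers and 15.7 to 49.5 in control livers, and its mean was 32.6 ± 10.1 in PB kidneys and 44.5 ± 7.99 in control kidneys. Summed hepatocyte markers were at least 102376 in every liver and at most 13142 in any kidney. Libraries that stood apart were PB liver 20, control livers 2 and 5, and PB kidneys 12, 15 and 17, which are described with the kidney results. PB liver 20 had a summed signal of 8 adipocyte markers of 1267, against 478 in the next PB liver. Control liver 2 was lowest of its group for 4 genes of the set by Dixon's criterion. Its adipocyte sum was 931, against 711 in the next control liver. Control liver 5 had summed kidney markers of 1721, against 434 in the next control liver. PB liver 20 also had a summed signal of 3 skeletal muscle markers of 497, against 105.9 in the next PB liver and at most 79.9 in control livers. A gene was tested where its mean reached 50 in either group compared, and was called at an adjusted p under 0.05 in limma, adjusted over all probe sets tested. With each array centred on its median, higher calls made up 36.8%, in place of 47.8%, of all probe sets called in liver, 72.3%, in place of 55%, in kidney and 32.3%, in place of 50.4%, in the test between tissues.

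In liver, 7 of the 35 tested genes were lower and 1 was higher in PB-treated mice. The lower genes were spread over the pathway: Pklr, Acacb, Elovl5, Scd1, Acsl5, Lpin1 and Plin2, and Elovl1 was higher. Calls made up 14.3% of all 9920 genes tested in liver, with 6.43% higher and 7.83% lower. The median log2 change of the 35 genes was -0.05, beside -0.02 over all genes tested. An unadjusted p under 0.05, in either direction, was found for 14 of the 35, and the share of all genes at that level was not counted. None of the 35 genes had groups without overlap, and 1.76% of all genes tested did. The count was 9 without PB liver 20, 11 without control liver 2 and 9 without control liver 5.

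**Figure D1:**
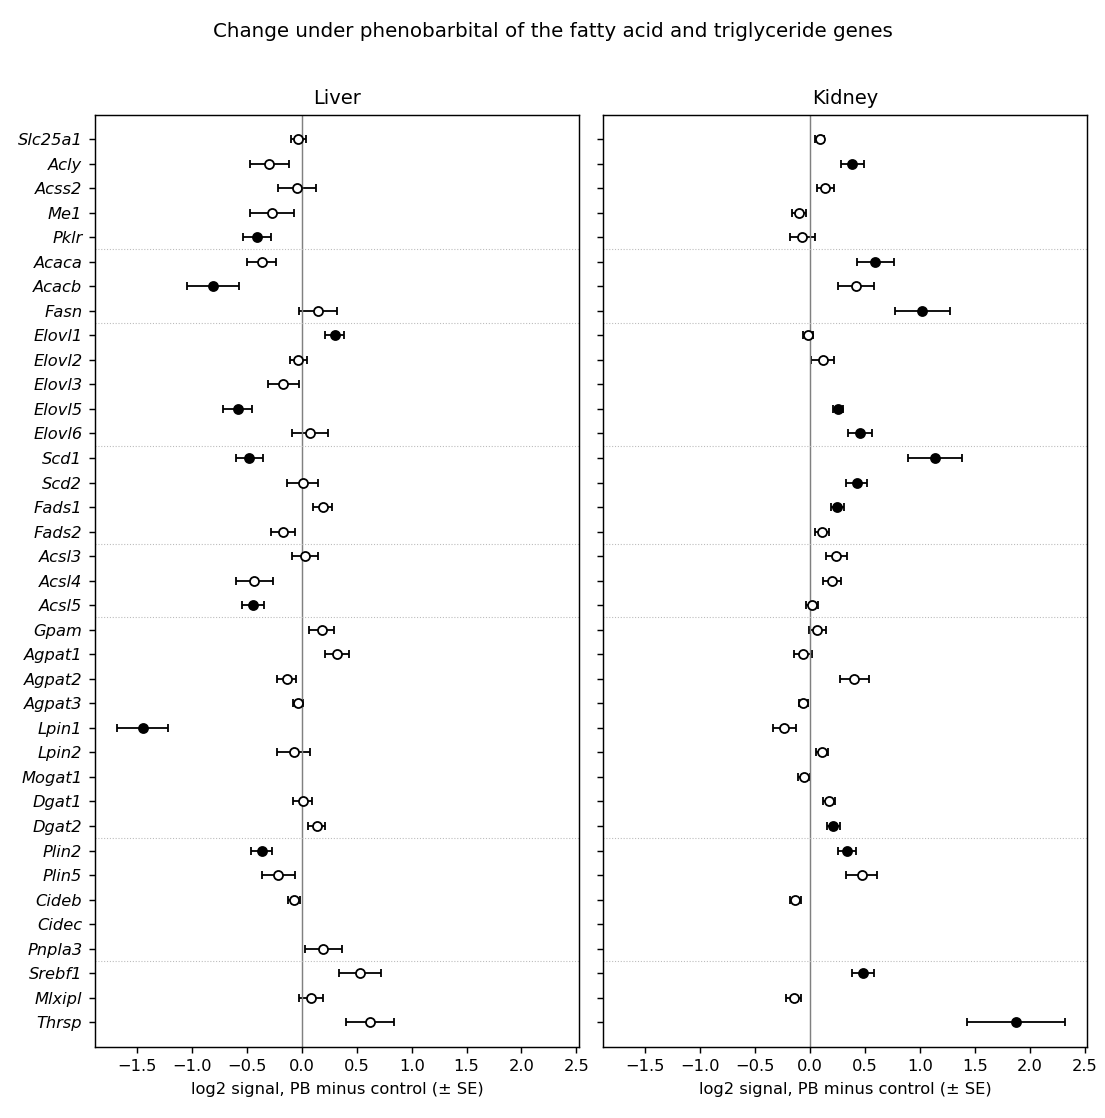
Log2 signal in PB-treated minus control mice (± SE, limma) for the genes of the set, in liver (left) and kidney (right), in order of their role from citrate supply (top) to regulators (bottom). Filled points are called at an adjusted p under 0.05, open points are not called, and genes without a point were not tested; liver has 7 called genes below 0 and 1 above, and kidney has 12 called genes above 0.

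Lpin1 had the largest change of the set in liver. It encodes lipin 1, a phosphatidate phosphatase that makes the diacylglycerol used for triglyceride and also acts in the nucleus as a transcriptional co-regulator. On probe set 1418288_at, the lowest, median and highest Lpin1 signals were 171, 285 and 504 in PB livers, against 441, 802 and 2032 in control livers. PB livers other than number 20 all lay below the lowest control, so 9 of 10 were below every control liver. The means were 322 ± 96.1 in PB livers and 944 ± 497 in control livers (SD, n = 10 each), a log2 change of -1.45 (SE 0.23, adjusted p = 0.00015 from limma). The adjusted p stayed at or under 0.000413 when each liver array was left out in turn. Lpin2, which encodes another lipin, had a log2 difference of -0.08 (adjusted p = 0.792).

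Of the 3 genes that build the chain, Acacb was called. It encodes the acetyl-CoA carboxylase whose malonyl-CoA restrains fatty acid oxidation at mitochondria. Its signal was 85, 171 and 357 (lowest, median and highest) in PB livers, against 215, 274 and 474 in control livers, and 6 of 10 PB livers lay below every control. The log2 change was -0.81 (SE 0.24, adjusted p = 0.028), and the call was lost when PB liver 11, 17 or 18 or control liver 3 was left out, with adjusted p values of 0.0528, 0.0509, 0.0559 and 0.0521. Acaca, which supplies the synthase, averaged 345 ± 101 in PB livers and 436 ± 69.1 in control livers and was not called (adjusted p = 0.0662). Fasn averaged 2053 ± 572 in PB livers and 1872 ± 723 in control livers, with a log2 difference of 0.14 (SE 0.17, adjusted p = 0.643).

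Scd1, the main desaturase of liver, which makes monounsaturated fatty acids, was lower by both of its probe sets. On probe set 1415964_at it measured 8716, 12859 and 19206 in PB livers, against 15232, 18187 and 21527 in control livers. On probe set 1415965_at it measured 704, 1251 and 2962 in PB livers, against 1752, 2743 and 4398 in control livers. On each of them 6 of 10 PB livers lay below every control. The log2 changes were -0.48 (SE 0.12, adjusted p = 0.0107) and -0.98 (SE 0.22, adjusted p = 0.00388), and the first was not called when all 40 arrays were fitted together (adjusted p = 0.101). Fads1 and Fads2, which act in the making of polyunsaturated fatty acids, had log2 differences of 0.19 and -0.17 with adjusted p values of 0.162 and 0.31.

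The elongases went different ways in liver. Elovl5, which lengthens polyunsaturated fatty acids, measured 3221, 4443 and 6806 in PB livers, against 4492, 7149.5 and 8345 in control livers. Its log2 change was -0.59 (SE 0.13, adjusted p = 0.00411), with 6 of 10 PB livers below every control. Elovl1, which lengthens saturated very-long chains, measured 1151, 1411 and 1956 in PB livers, against 956, 1175 and 1304 in control livers. Its log2 change was 0.30 (SE 0.09, adjusted p = 0.0238), 6 of 10 PB livers lay above every control, and it was not called with arrays centred on their median (adjusted p = 0.0528). Elovl2, Elovl3 and Elovl6 had log2 differences between -0.17 and 0.08 and were not called.

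Acsl5 encodes an acyl-CoA synthetase, which activates fatty acids. Its lowest, median and highest values were 2321, 2914 and 3689 in PB livers, against 3037, 4019.6 and 4893 in control livers, with 6 of 10 PB livers below every control. The log2 change of Acsl5 was -0.45 (SE 0.10, adjusted p = 0.00343). Plin2, a coat protein of lipid droplets, measured 2835, 3243 and 4392 in PB livers, against 3575, 4039 and 6397 in control livers. For Plin2 8 of 10 PB livers lay below every control, and the log2 change was -0.37 (SE 0.10, adjusted p = 0.0146). Pklr, the liver pyruvate kinase and a classical ChREBP target, measured 335, 477 and 724 in PB livers, against 519, 694 and 885 in control livers. Its log2 change was -0.41 (SE 0.13, adjusted p = 0.0364), a call that held in 8 of the 20 fits that each left out 1 liver array, with adjusted p values up to 0.0668. The second Pklr probe set, by mean signal, had a log2 difference of -0.33 (adjusted p = 0.171). By the t-test of the study's methods, Pklr had an adjusted p of 0.0658 on log2 signal and 0.0737 on linear signal.

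**Figure D2:**
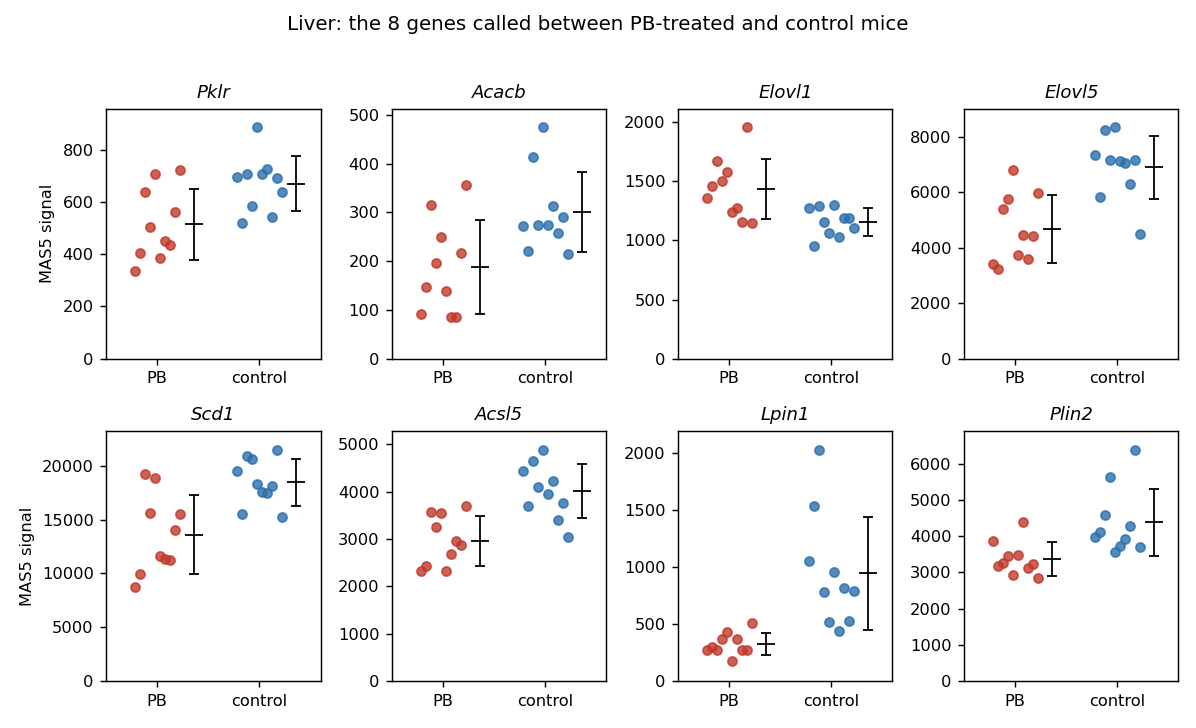
MAS5 signal (linear axis from 0) of the 8 called genes in each of the 10 PB livers (left in each panel) and 10 control livers (right). Points are animals and black bars give the mean ± SD; for Lpin1, 9 of 10 PB livers lie below every control liver, and for Plin2, 8 of 10 do.

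The regulators were not called in liver. Srebf1 measured 950.2, 1581 and 1933 in PB livers, against 487, 1131 and 2206 in control livers, a log2 difference of 0.53 (SE 0.19, adjusted p = 0.0733), and no PB liver lay above the highest control, number 5. Srebf1 was called without control liver 5 (adjusted p = 0.013), without PB liver 17 (adjusted p = 0.0389) and with all 40 arrays in 1 fit (adjusted p = 0.0176). Thrsp, which encodes a lipogenic protein of liver and fat, averaged 8069 ± 2407 in PB livers and 5393 ± 2014 in control livers (log2 difference 0.62, SE 0.22, adjusted p = 0.0663). Mlxipl had a log2 difference of 0.08 (adjusted p = 0.689).

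Animals of a group differed in Srebf1, and 8 genes of the pathway were set against it on the log2 scale over the 10 animals of each liver group, 16 relations in all. In PB livers Pearson's r ranged from 0.095 for Acaca to 0.83 for Fasn. For Fasn in PB livers, Spearman's rho was 0.66, and the permutation p was 0.00359 for r and 0.0442 for rho, or 0.0264 and 0.156 after adjustment over the 16 relations. Without PB animals 17 and 18, the farthest from the median of Srebf1, r was 0.75. For Thrsp in PB livers r was 0.79 (permutation p = 0.00661, adjusted 0.0264), rho was 0.67 (permutation p = 0.0384, adjusted 0.156), and r was 0.56 without these animals. In control livers r ranged from 0.11 for Scd1 to 0.90 for Pklr. For Fasn in control livers r was 0.53 (permutation p = 0.135), rho was 0.13, and r was -0.24 without control animals 2 and 5. For Pklr the permutation p was 0.00083 (adjusted 0.0133), rho was 0.82 (permutation p = 0.00634, adjusted 0.101), and r was 0.69 without control animals 2 and 5. Me1, malic enzyme, which supplies NADPH, had r of 0.76 in control livers (permutation p = 0.0111, adjusted 0.0357), rho of 0.65 (permutation p = 0.0488, adjusted 0.156) and r of 0.53 without these animals. For Thrsp in control livers r was 0.81 (permutation p = 0.00645, adjusted 0.0264) and rho 0.68 (permutation p = 0.0346, adjusted 0.156). Without control animals 2 and 5 this r was 0.31, so its value depended on these animals. None of the 16 values of rho passed an adjusted p of 0.05. How many genes outside the set followed Srebf1 as closely was not counted.

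Other genes of the pathway, 50 by name of which 31 were tested in liver, gave 4 higher and 4 lower calls. Calls made up 25.8% of the 31, beside 14.3% of all genes tested in liver. Insig1, which holds the SREBP precursor in the endoplasmic reticulum, averaged 2248 ± 379.6 in PB livers and 1384 ± 462 in control livers (log2 change 0.75, adjusted p = 0.00152). Idh1, a source of cytosolic NADPH, Fads6 and Hacd1 were also higher, with log2 changes of 0.28, 0.45 and 0.26. Gpd1, which makes glycerol 3-phosphate, averaged 715 ± 57.3 in PB livers and 937 ± 98.8 in control livers (log2 change -0.39, adjusted p = 0.000161), and 9 of 10 PB livers lay below every control. Hacd3 and Hsd17b12, which act in the elongation cycle, and Fitm2, a protein of lipid droplet formation, were lower, with log2 changes of -0.37, -0.26 and -0.24.

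Clock genes and genes of fasting moved with treatment in the same livers. Of 14 clock genes tested, 4 were higher (Per2, Per3, Dbp and Tef) and 3 lower (Arntl, Clock and Nfil3). The clock output gene Dbp measured 157, 547 and 2699 in PB livers, against 39, 123 and 443 in control livers (log2 change 2.32, adjusted p = 0.00355), and Arntl, which encodes the core clock factor BMAL1, had a log2 change of -0.75 (adjusted p = 0.00084). Of 6 tested genes that respond to fasting and insulin, 4 were lower: Igfbp1, G6pc, Irs2 and Angptl4, with log2 changes of -2.47, -0.86, -1.31 and -1.13. Calls made up 50% of the clock genes and 66.7% of these 6 genes, beside 14.3% of all genes tested in liver. Igfbp1, which insulin represses, measured 92.3, 309.8 and 1693 in PB livers, against 992, 2205 and 7724 in control livers. The signal summed over 7 such genes ranged from 4662 to 13539 in PB livers, highest in number 20, and from 8472 to 22272 in control livers. The part of clock and fasting genes in the liver results was not tested.

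In kidney, 12 of the 34 tested genes were called higher in PB-treated mice and none was called lower by limma. An unadjusted p under 0.05 was found for 22. Of these, Lpin1, Cideb and Mlxipl were lower, with log2 differences of -0.23, -0.14 and -0.15. The share of all genes at that level was not counted. The higher genes ran from acetyl-CoA supply (Acly) and chain synthesis (Acaca, Fasn) through elongation (Elovl5, Elovl6) and desaturation (Scd1, Scd2, Fads1) to triglyceride and droplets (Dgat2, Plin2) and the regulators Srebf1 and Thrsp. Over all 10048 genes tested in kidney, 3.75% were called, with 2.16% higher and 1.59% lower. The median log2 change of the 34 genes was 0.18, beside 0.01 over all genes tested. No gene of the set had groups without overlap, beside 0.239% of all genes tested.

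Adipocyte markers moved in the same kidneys, by amounts that differed from animal to animal. Of 7 adipocyte markers tested, 5 were higher (Cidea, Adipoq, Fabp4, Ucp1 and Cox8b), and the median log2 change of the 7 was 2.54. Ucp1 marks brown fat, and it measured 2.6, 133 and 609 in PB kidneys, against 1.4, 17.0 and 75.3 in control kidneys. Adipoq, the adiponectin gene, measured 55.8, 206 and 956 in PB kidneys, against 3.2, 50.5 and 116 in control kidneys. Summed over 8 markers, the signal was 1170, 2601 and 8268 (lowest, median and highest) in PB kidneys, against 1026, 1167 and 1809 in control kidneys, and 8 of 10 PB kidneys lay above the highest control. The highest PB kidneys were 12 (8268), 15 (5980.0) and 17 (5044). Fabp4 also had signal in control kidneys (697 to 1275), whereas Lep, the leptin gene, measured 13.9 or less in every kidney. Fat cells are themselves known to express Fasn, Scd1, Acly and Thrsp at high level. In whole tissue, more cells of a type and more RNA per cell cannot be told apart. The part of fat cells in the kidney results was not tested.

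For 7 of the 12 called genes (Acly, Acaca, Fasn, Elovl6, Scd1, Plin2 and Thrsp), PB kidneys 12, 15 and 17 were the 3 highest PB kidneys. Without these 3 kidneys, an alternative chosen after seeing the data, 2 genes were called by limma: Elovl5 (log2 change 0.20, adjusted p = 0.0391) and Fads1 (0.24, adjusted p = 0.0396). With the log2 marker sum as a covariate, also chosen after seeing the data, none of the 34 was called by limma. The marker sum itself was higher in most PB kidneys than in any control kidney. A fit that holds the marker sum therefore cannot separate PB from the markers. With the covariate the log2 difference of Fads1 was 0.21, in place of 0.25, that of Srebf1 0.32, in place of 0.48, and that of Elovl5 0.14, in place of 0.25. For Acly, Elovl6, Scd1, Scd2, Dgat2 and Plin2 it was 0.06, 0.03, 0.20, 0.22, 0.12 and 0.10, and for Acaca, Fasn and Thrsp it was just below 0. In that fit 36 probe sets of the whole array were called, in place of 627, and among the 12 genes Elovl5, Fads1 and Srebf1 had an unadjusted p under 0.05 (0.0228, 0.0146 and 0.0213).

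**Figure D3:**
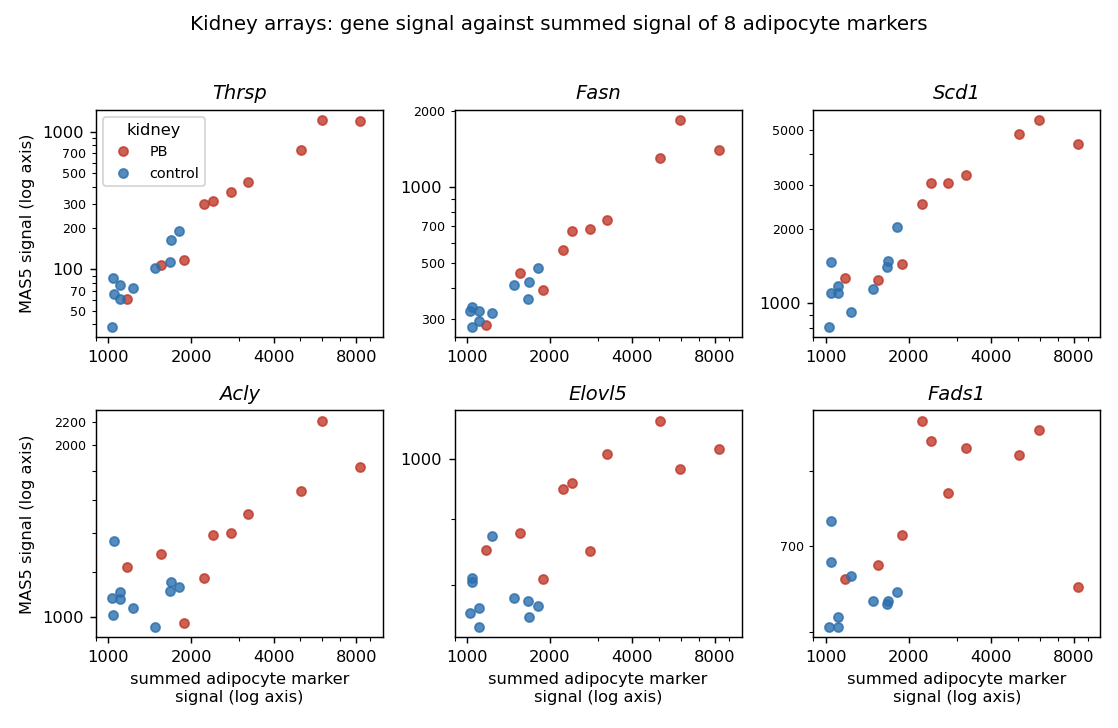
Signal of 6 genes called in kidney (log axis) against the summed signal of 8 adipocyte markers (log axis) in 10 PB kidneys and 10 control kidneys, each point 1 animal. For Thrsp, Fasn, Scd1 and Acly the 3 PB kidneys with the highest marker sums (8268, 5980.0 and 5044) are also the 3 highest for the gene, and for Elovl5 and Fads1 they are not.

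Thrsp had the largest log2 change of the set in kidney. It measured 60.4, 339 and 1214 in PB kidneys, against 38.3, 82.4 and 192 in control kidneys (log2 change 1.88, SE 0.45, adjusted p = 0.023). In PB kidneys 12, 15 and 17 it lay between 743 and 1214, and of the other 7 PB kidneys 4 were above every control. Without the 3 kidneys the log2 difference was 1.16 (adjusted p = 0.127), and with the marker sum as covariate it was -0.02 (adjusted p = 0.988). Thrsp was also not called in limma with robust eBayes (adjusted p = 0.0506). By the t-test of the study's methods its adjusted p was 0.0595 on log2 signal and 0.138 on linear signal.

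Fasn measured 284, 675 and 1836 in PB kidneys, against 279.9, 328 and 479.9 in control kidneys (log2 change 1.02, SE 0.25, adjusted p = 0.0248). PB kidneys 12, 15 and 17 gave 1302 to 1836, and the other 7 at most 743. Without them the log2 difference was 0.56 (adjusted p = 0.0852), and with the covariate -0.02 (adjusted p = 0.977). Fasn was also not called in limma with robust eBayes (adjusted p = 0.0515). By the t-test of the study's methods its adjusted p was 0.0616 on log2 signal and 0.122 on linear signal. Acaca was highest in the same kidneys, with 115, 186 and 350.2 in PB kidneys, against 105, 131 and 179 in control kidneys (log2 change 0.60, SE 0.17, adjusted p = 0.0491). It held its call in 4 of the 20 fits that each left out 1 kidney array, and its log2 difference was -0.01 with the covariate (adjusted p = 0.988). Acly measured 975, 1395 and 2209 in PB kidneys, against 959, 1091 and 1356 in control kidneys (log2 change 0.38, SE 0.10, adjusted p = 0.0441), with a call in 5 of those 20 fits. The second Acly probe set, by mean signal, had a log2 difference of 0.34 (adjusted p = 0.0514).

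Scd1 was higher in kidney by both probe sets. On 1415964_at it measured 1248, 3052 and 5444 in PB kidneys, against 807, 1155 and 2025 in control kidneys (log2 change 1.14, SE 0.24, adjusted p = 0.0111). On 1415965_at it measured 119, 252 and 508 in PB kidneys, against 103, 119 and 185 in control kidneys (log2 change 0.89, SE 0.22, adjusted p = 0.0265). In each case 7 of 10 PB kidneys lay above every control. Without PB kidneys 12, 15 and 17, the difference on 1415964_at was 0.77 (adjusted p = 0.0729), and with the covariate it was 0.20 (adjusted p = 0.773).

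Scd2, a desaturase known mainly from tissues other than adult liver, measured 640.4, 1089.7 and 1185 in PB kidneys, against 625, 739 and 877 in control kidneys (log2 change 0.43, SE 0.09, adjusted p = 0.0136). Fads1, the delta-5 desaturase, measured 650.4, 796 and 874 in PB kidneys, against 606, 634 and 732 in control kidneys (log2 change 0.25, SE 0.06, adjusted p = 0.0196). PB kidney 12, the highest in adipocyte markers, was the highest PB kidney for Scd2 and the lowest for Fads1. The second Fads1 probe set, by mean signal, had a log2 difference of -0.06 (adjusted p = 0.81).

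Elovl5 had the smallest adjusted p of the set in kidney. It measured 809, 954 and 1071 in PB kidneys, against 742, 774 and 873 in control kidneys (log2 change 0.25, SE 0.05, adjusted p = 0.0049), and 7 of 10 PB kidneys lay above every control. With all 40 arrays in 1 fit Elovl5 was not called in kidney (adjusted p = 0.315), nor were Acly, Elovl6, Scd2, Fads1, Dgat2, Plin2 and Srebf1 (adjusted p from 0.0658 for Scd2 to 0.301 for Acly). Elovl6, which lengthens palmitate to stearate, measured 144, 201 and 293 in PB kidneys, against 117, 157 and 167 in control kidneys (log2 change 0.45, SE 0.11, adjusted p = 0.0278). The difference was 0.29 without PB kidneys 12, 15 and 17 (adjusted p = 0.161) and 0.03 with the covariate (adjusted p = 0.955). The Elovl6 call was lost without PB kidney 15, 17 or 20 or control kidney 4, with adjusted p values of 0.0509, 0.051, 0.0524 and 0.0543.

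Dgat2 encodes an enzyme of the last step to triglyceride. It measured 795, 902 and 1260.2 in PB kidneys, against 748, 775 and 871 in control kidneys (log2 change 0.21, SE 0.06, adjusted p = 0.0441), PB kidney 15 stood alone at the top, and the call held in 6 of the 20 fits that left out 1 array. The second Dgat2 probe set, by mean signal, had a log2 difference of 0.10 (adjusted p = 0.327). Dgat2 was also not called with no filter, with arrays centred on their median or by the t-test of the study's methods. Plin2 measured 463, 648 and 811 in PB kidneys, against 452, 501 and 557 in control kidneys (log2 change 0.33, SE 0.08, adjusted p = 0.0268), and was not called without control kidney 8 (adjusted p = 0.0554). Srebf1 was higher in kidney too, and its highest value was in PB kidney 16, which had an adipocyte marker sum of 2237. Srebf1 measured 179, 272 and 322 in PB kidneys, against 152, 184 and 242 in control kidneys (log2 change 0.48, SE 0.10, adjusted p = 0.00896), and the difference was 0.41 without PB kidneys 12, 15 and 17 (adjusted p = 0.0641).

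**Figure D4:**
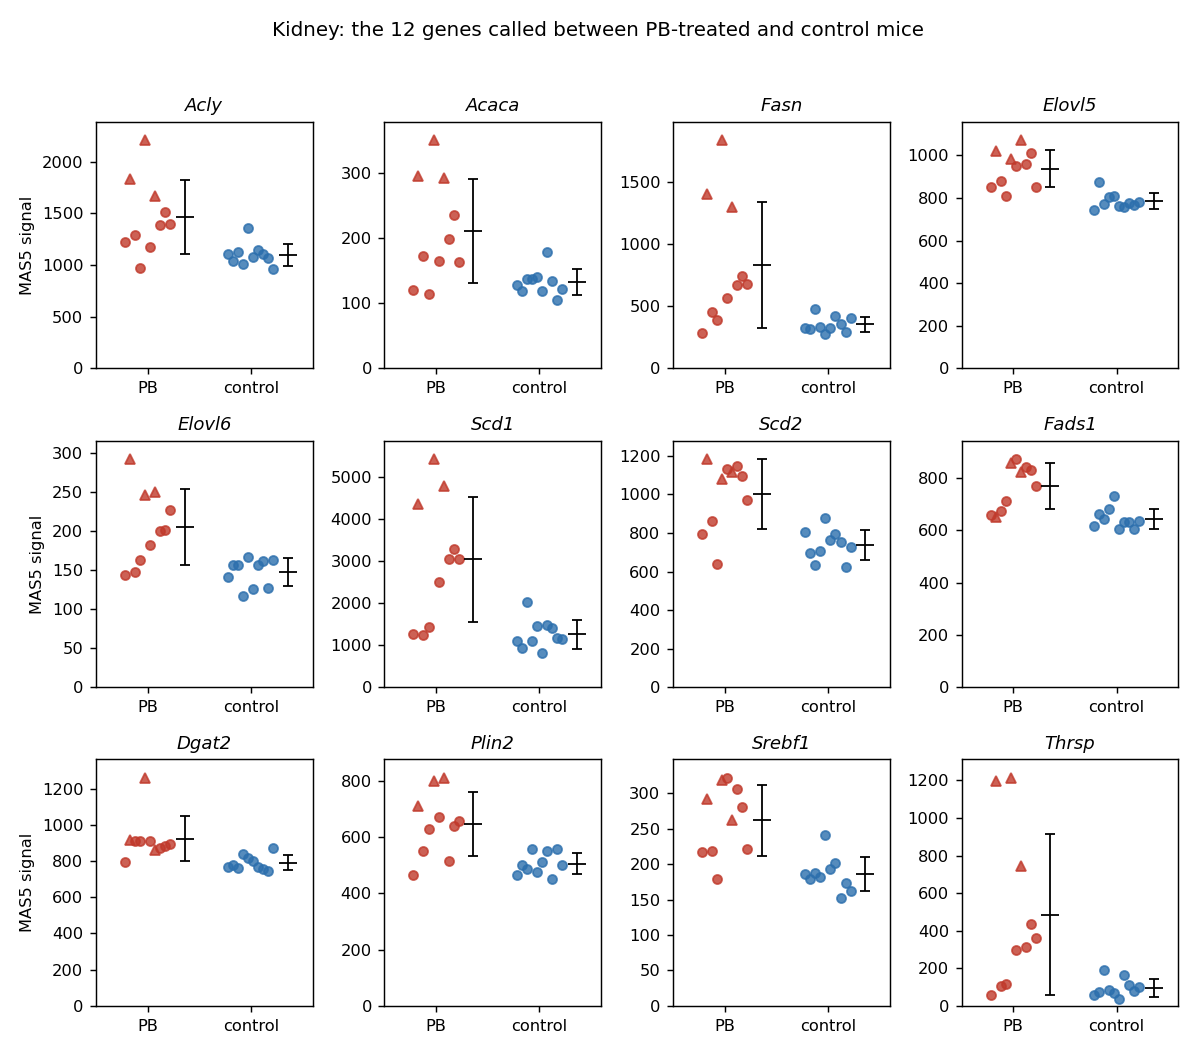
MAS5 signal (linear axis from 0) of the 12 called genes in each of the 10 PB kidneys (left in each panel) and 10 control kidneys (right). Points are animals, triangles are PB kidneys 12, 15 and 17, and black bars give the mean ± SD; the triangles are the 3 highest PB kidneys for Acly, Acaca, Fasn, Elovl6, Scd1, Plin2 and Thrsp.

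Of the 38 other pathway genes tested in kidney, 4 were higher and 1 was lower. Calls made up 13.2% of the 38, beside 3.75% of all genes tested in kidney. Mogat2, a monoacylglycerol acyltransferase, had no overlap between groups, with 201 to 284 in PB kidneys, against 116 to 189 in control kidneys (log2 change 0.51, adjusted p = 0.000992). Mgll, monoacylglycerol lipase, had a log2 change of 0.34 (adjusted p = 0.000823), and 9 of 10 PB kidneys lay above every control. Plin4 and Cidea, droplet proteins of fat, had log2 changes of 1.18 and 2.94, and Hacd2, of the elongation cycle, had -0.19. Clock genes moved in kidney too, where 6 of 15 tested were higher and 2 were lower, or 53.3% called beside the same 3.75%. Dbp had a log2 change of 1.35 (adjusted p = 0.00948) and Arntl of -0.58 (adjusted p = 0.022). None of the 6 fasting and insulin genes tested was called in kidney by limma, and 0 had an unadjusted p under 0.05. The part of the clock genes in the kidney results was not tested.

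The effect of PB differed between liver and kidney for 10 of the 36 genes tested in 1 fit over the 40 arrays. The difference, PB minus control in liver less the same in kidney, was above 0 for Elovl1 and below 0 for Acaca, Acacb, Elovl5, Scd1, Acsl5, Agpat2, Lpin1, Plin2 and Plin5. Over all 11193 genes tested, 7.66% were called, with 3.56% above and 4.09% below 0. The median difference of the 36 genes was -0.30, beside -0.03 over all genes tested. This test draws on the same arrays as the tests within each tissue. It held no term for the animal, although each animal gave both tissues. Without PB animals 12, 15 and 17, a setting chosen after seeing the data, 6 of the 10 were called: Acaca, Elovl5, Scd1, Acsl5, Lpin1 and Plin2. In that fit the difference was -0.72 for Plin5 (adjusted p = 0.0588), 0.30 for Elovl1 (adjusted p = 0.128), -0.95 for Acacb (adjusted p = 0.077) and -0.29 for Agpat2 (adjusted p = 0.216).

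Scd1 showed the largest difference, -1.62 on 1415964_at (SE 0.29, adjusted p = 0.000241) and -1.87 on 1415965_at (SE 0.33, adjusted p = 0.00017). Elovl5 differed by -0.84 (SE 0.15, adjusted p = 0.000152) and Plin2 by -0.70 (SE 0.13, adjusted p = 0.000499). Scd1, Elovl5 and Plin2 were called in each tissue on its own, lower in liver and higher in kidney. Lpin1 differed by -1.22 (SE 0.27, adjusted p = 0.00318). In kidney Lpin1 measured 257, 318 and 397 in PB mice, against 298, 371 and 479.7 in control mice, a log2 difference of -0.23 that was not called (adjusted p = 0.233).

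Both acetyl-CoA carboxylases differed between the tissues. Acacb differed by -1.23 (SE 0.31, adjusted p = 0.00964) and in kidney measured 55.7, 76.9 and 129.9 in PB mice, against 34.5, 56.2 and 93.9 in control mice. Acaca differed by -0.96 (SE 0.22, adjusted p = 0.00487). Acsl5 differed by -0.46 (SE 0.12, adjusted p = 0.0105), and its kidney values of 460.1, 560.1 and 628 in PB mice, against 463, 546 and 602 in control mice, overlapped throughout.

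Agpat2, Plin5 and Elovl1 were nearest the threshold. Agpat2, which makes phosphatidate, differed by -0.54 (SE 0.17, adjusted p = 0.0428). Its means were 2991 ± 344 in PB livers and 3306 ± 454 in control livers, and 388 ± 136 in PB kidneys and 281 ± 21.8 in control kidneys (SD, n = 10 each). The Agpat2 difference was -0.29 without PB animals 12, 15 and 17, and in kidney its log2 difference was -0.13 with the adipocyte covariate, in place of 0.40, and not called in either fit. Plin5, a droplet protein of tissues that oxidise fat, differed by -0.69 (SE 0.21, adjusted p = 0.0466). The Plin5 means were 645 ± 173 in PB livers and 744 ± 158 in control livers, and 67.7 ± 15.2 in PB kidneys and 48.8 ± 11.0 in control kidneys, the last below the level of 50 used for testing. With a floor of 50 the Plin5 difference was -0.56 (adjusted p = 0.0528). Elovl1 differed by 0.32 (SE 0.10, adjusted p = 0.0428), with kidney means of 1341 ± 87.4 in PB mice and 1357 ± 82.1 in control mice. These 3 calls held in 17 (Agpat2), 12 (Plin5) and 18 (Elovl1) of the 40 fits that each left out 1 array. With the animal as a fixed block, Elovl1 and Agpat2 were not called. On their second probe sets, by mean signal, Plin5 and Elovl1 were not called.

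Fasn and Thrsp, called in kidney and not in liver, did not pass the test of the difference itself, with -0.88 (SE 0.32, adjusted p = 0.102) and -1.26 (SE 0.54, adjusted p = 0.17). Srebf1 differed by 0.05 (SE 0.23, adjusted p = 0.939). Acly (-0.68, adjusted p = 0.051) and Acsl4 (-0.63, adjusted p = 0.0503) just missed the threshold and were called with the animal as a fixed block (adjusted p = 0.0324 and 0.0284), as was Agpat1 (0.39, adjusted p = 0.0698, and 0.047 with the block).

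Apart from PB, the tissues differed in most of these genes. In PB mice 26 of 36 tested genes were higher and 5 lower in liver than in kidney, where 82.8% of all 11029 genes tested were called (36.2% higher and 46.6% lower). In control mice 27 of 36 were higher and 6 lower, where 80.7% of all 10920 genes tested were called (36.5% higher and 44.2% lower). The median log2 difference of the 36 genes was 1.07 in PB mice, beside -0.12 over all genes tested, and 1.29 in control mice, beside -0.08. The 36 genes included 23 without overlap between the tissues in PB mice, beside 50.6% of all genes tested, and 26 in control mice, beside 48.1%.

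Elovl3, an elongase of saturated and monounsaturated chains, lay farthest toward liver. In PB mice it measured 3649, 7667 and 9352 in livers, against 11.4, 27.8 and 50.5 in kidneys, and in control mice 5233, 8789.9 and 12011 in livers, against 16.3, 22.3 and 32.1 in kidneys. Its kidney means were below the level of 50 used for testing. Taken against that level, Elovl3 was at least 151-fold higher in liver in PB mice and at least 169.9-fold higher in control mice. Elovl2, which lengthens polyunsaturated chains, measured 3449, 4616 and 5304 in control livers, against 252, 350.2 and 425 in control kidneys (log2 difference 3.71, SE 0.09, adjusted p = 1.19e-20).

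Mogat1, which makes diacylglycerol from monoacylglycerol, ran the other way. It measured 15, 20.9 and 33.7 in PB livers, against 2597, 2826 and 3383 in PB kidneys, and 4.1, 24.6 and 44 in control livers, against 2557, 2870.5 and 3429 in control kidneys. Its liver means were below 50, and taken at that level Mogat1 was at least 57-fold lower in liver in PB mice and at least 59.3-fold lower in control mice.

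**Figure D5:**
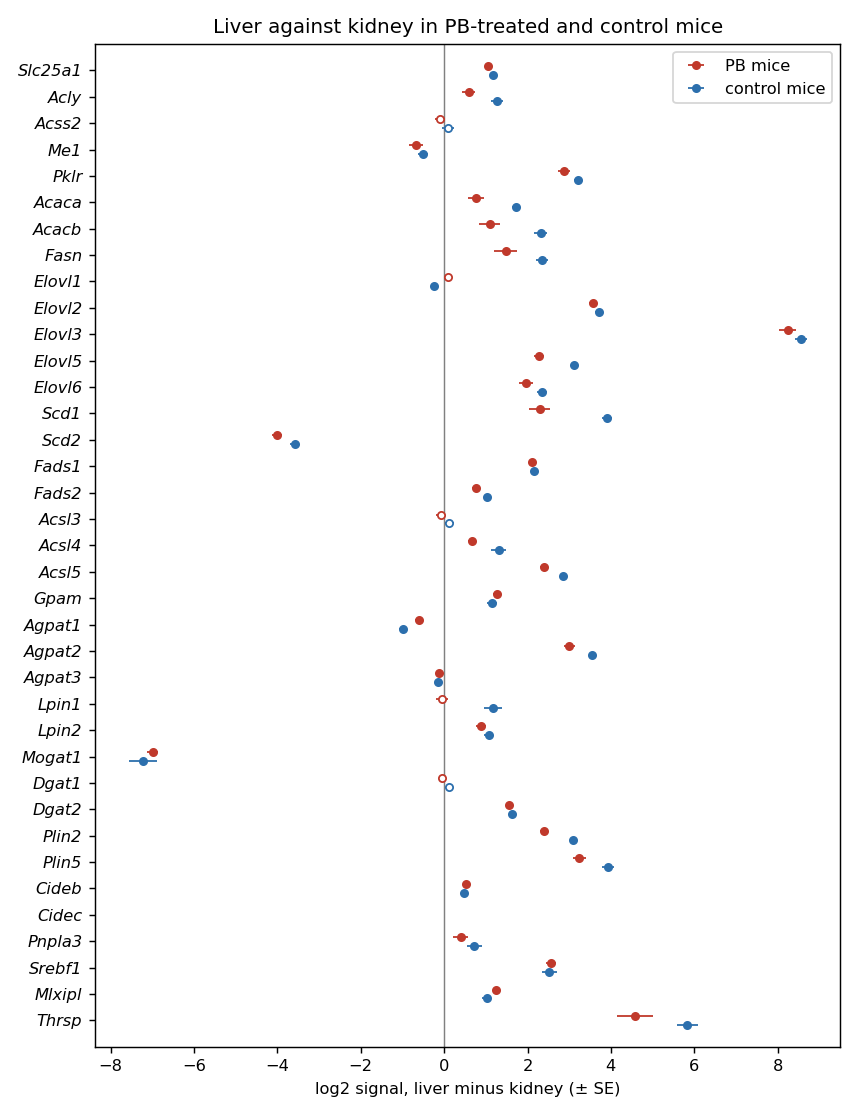
Log2 signal in liver minus kidney (± SE, limma) for each gene in PB mice and control mice. Filled points are called at an adjusted p under 0.05 and open points are not; Elovl3 lies farthest to the right, Mogat1 and Scd2 lie farthest to the left, and Lpin1 lies near 0 in PB mice.

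The desaturases divided by tissue. Scd1 averaged 13616 ± 3636 in PB livers and 3047 ± 1487 in PB kidneys (log2 difference 2.29, SE 0.25), and 18479 ± 2163 in control livers and 1263 ± 348 in control kidneys (log2 difference 3.91, SE 0.12). Scd2 averaged 62.7 ± 13.2 in control livers and 738 ± 77.6 in control kidneys (log2 difference -3.58, SE 0.11). Me1, Elovl1, Agpat1 and Agpat3 were also lower in liver of control mice, with log2 differences of -0.50, -0.24, -0.99 and -0.15.

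The gap between tissues in PB mice less the gap in control mice is the same quantity as the difference of the PB effects, which was called for Lpin1 and not for Thrsp. Thrsp was higher in liver by 4.58 on the log2 scale in PB mice and by 5.84 in control mice. Lpin1 averaged 322 ± 96.1 in PB livers and 323 ± 55.1 in PB kidneys, a log2 difference of -0.04 (SE 0.15, adjusted p = 0.79). In control mice Lpin1 averaged 944 ± 497 in livers and 380.5 ± 67.8 in kidneys, a log2 difference of 1.17 (SE 0.21, adjusted p = 2.96e-05).

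The remaining genes gave no call for PB. Slc25a1, Acss2, Me1, Elovl2, Fads2, Acsl3, Acsl4, Gpam, Agpat1, Agpat3, Lpin2, Dgat1, Cideb and Mlxipl were tested in both tissues and called in neither, with log2 differences from -0.43 (Acsl4) to 0.32 (Agpat1) in liver and from -0.15 (Mlxipl) to 0.24 (Acsl3) in kidney. Agpat1, an acyltransferase that makes phosphatidate, had an adjusted p of 0.052 in liver and was called there without PB liver 11 (adjusted p = 0.0279) or control liver 2 (0.0219), and Acsl4 without control liver 9 (0.0478). Agpat1 was also called in liver in 6 of 14 other settings, among them the methods' t-test on log2 signal (adjusted p = 0.042) and on linear signal (adjusted p = 0.0483). Elovl3 and Pnpla3 were tested in liver and Mogat1 in kidney, with no call. Cidec, a droplet protein of fat, had means under 50 in every group and was not tested. It measured 0.6, 20.2 and 91.3 in PB kidneys, against 0.6, 9.55 and 17.1 in control kidneys, highest in PB kidneys 12, 15 and 17.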

How the data were processed

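Liver and kidney RNA of 20 mice was measured on 40 Affymetrix Mouse430_2 arrays. The deposited values are MAS5 signal intensities, made by the authors (GCOS and MAS5, per the submitters' processing notes) and scaled to a trimmed mean of 150 (2% trimmed at each end), on a linear scale with no replicates pooled. No column was left unused. The table held 45037 probe sets, of which 34945 carried 1 gene symbol, 932 several and 9160 none in the platform annotation, and 34741 matched a RefSeq gene. The number of arrays limits the precision.

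Signals were floored at 1 and taken to log2. A probe set was tested where its mean reached 50 in either group compared, as in the study's methods. Tests were two-sided in limma 3.58.1 (lmFit, and eBayes with a trend) under R 4.3.3, with Benjamini-Hochberg adjustment over all probe sets tested, and a call was an adjusted p under 0.05. The 5 comparisons were PB against control in liver and in kidney, the difference of these effects over 40 arrays, and liver against kidney in PB and in control mice. They share arrays. Each group held 10 separate animals. Genes counted as background were read from 1 probe set each. Permutation tests used 100000 resamples in SciPy 1.17.1 (Python 3.11.15, NumPy 2.4.6, pandas 2.3.3, matplotlib 3.10.9). The limma fits were checked on simulated data, in which every group had the same spread and the tissues were not paired. False calls made up 5.88% of calls in liver, 5.45% in kidney and 7.3% in the test between tissues. Of changes simulated at 1.5-fold, 92.5% were called in liver, 91% in kidney and 61.2% in the test between tissues. Changes were simulated only in probe sets well above the level of 50 used for testing, so these shares do not cover genes near it. The check does not cover groups of unequal spread.

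The labels give each tissue sample a donor number, and liver and kidney of 1 donor are paired. As a check, departures from the group means were correlated between the paired tissues across 21866 probe sets: r had a median of 0.0437 (-0.0367 to 0.0876, 20 donors), beside -0.0044 for unpaired tissues, and for 11 of 20 donors the paired kidney gave the highest r. The study's thresholds were a fold change of 1.5 and a t-test p of 0.001.

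The genes, the lists of other genes and markers, and the tests were chosen with earlier results of these data known. Values by group were given for genes called in a PB comparison or in the difference between tissues, for both Scd1 probe sets, and for 3 further genes far apart between the tissues; the others were given by range. Acsl1 and some genes of the other lists were not analysed here. In liver, limma called 0 of 6 macrophage, 2 of 5 stellate cell (Dcn and Des, lower) and 1 of 4 endothelial markers tested (Stab2, lower). It also called 2 of 7 hepatocyte markers there (Fgb and Ahsg, lower), beside 14.3% of all genes tested. In kidney it called 1 of 6 stellate cell markers (Lum, higher), 0 of 3 macrophage and 0 of 3 endothelial markers, beside 3.75% of all genes tested. Hepatocyte markers gave 0 calls of 2 in kidney by limma (0 at an unadjusted p under 0.05). Kidney markers gave 0 of 2 in liver and 0 of 9 in kidney by limma (0 in liver and 1 in kidney at an unadjusted p under 0.05). Alternatives covered the filter, the floor, an offset of 16, scaling, the probe set chosen, the test, the animal as a block and each array left out in turn.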

Additional observations from a re-analysis of the deposited data

Results flagged for a closer look

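Samples far from the rest of their group were looked for in 141 sets of 10 values, on the log2 scale, and 13 were found; chance gives about 1 in 20. Control liver 2 was lowest for Agpat2 (2107, next 3186), Plin5 (400.9, next 636), Mlxipl (1266.3, next 2292) and Thrsp (1993.7, next 4108). Control liver 5 was highest for Fasn (3844.2, next 1958) and Gpam (4392.4, next 2897). PB liver 20 was highest for Acss2 (3586.4, next 2237) and lowest for Elovl3 (3649.2, next 7266) and Agpat2 (2233.6, next 2777). PB liver 20 also stood apart in its adipocyte marker sum and control liver 5 in its kidney marker sum. Control liver 2 had the highest adipocyte sum of its group (931, next 711). Among kidneys, PB kidney 14 was lowest for Acss2 (1510.2) and highest for Mogat1 (3383), PB kidney 15 was highest for Dgat2 (1260.2, next 916), and control kidney 5 was highest for Acly (1356, next 1149).

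The effect of PB differed between liver and kidney, by a test of the difference itself, for 10 genes. The log2 difference was 0.32 for Elovl1, and -1.62 for Scd1, -1.23 for Acacb, -1.22 for Lpin1, -0.96 for Acaca, -0.84 for Elovl5, -0.70 for Plin2, -0.69 for Plin5, -0.54 for Agpat2 and -0.46 for Acsl5.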

How the results depend on the processing

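The number of genes called in liver was 8, and it was 6 to 11 with each array left out, 5 with the second probe set of each gene and 1 (Lpin1) at the study's thresholds with the limma p. Lpin1 stayed called in liver in 15 other settings and with each array left out, and did not pass the study's thresholds with the methods' t-test on linear signal. In kidney the number was 12, and it was 8 to 14 with each array left out, 7 with no filter, 5 with the second probe set, 5 and 4 with the methods' t-test on log2 and linear signal, 4 with all 40 arrays in 1 fit, 3 at the study's thresholds, 2 without PB kidneys 12, 15 and 17 and 0 with the adipocyte covariate, by limma. Robust eBayes gave 8 in kidney, without Acly, Acaca, Fasn and Thrsp. By the methods' t-test on log2 signal Elovl5, Scd1, Scd2, Fads1 and Srebf1 stayed called in kidney, and Scd1 was lost on linear signal. With the covariate the sign turned for the called genes Acaca (-0.0135), Fasn (-0.0206) and Thrsp (-0.0210) and for Agpat2 (-0.130), Gpam (-0.0778) and Elovl2 (-0.0459), which were not called, and on the second probe set for Fads1 in kidney (-0.0571) and for Acsl3 between tissues in control mice (-0.443). The difference between tissues gave 10, with 7 to 11 on leaving out each array, 4 with the second probe set and 6 without PB animals 12, 15 and 17. With the animal as a replicate block it gave 11 (fixed) and 12 (random), of which 8 and 10 were among the 10. Liver against kidney gave 31 in PB mice (30 to 31 with an array left out, 17 with the second probe set) and 33 in control mice (33 with any array left out, 20 with the second probe set), and the blocks changed no call there. The second probe set tests fewer genes; the cause of the other changes was not tested.

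At the study's thresholds the methods' t-test called 401 probe sets in liver on log2 signal and 72 in kidney, with 1 gene of the set each (Lpin1 and Scd1), and 373 and 59 on linear signal, with 0 genes of the set in either. After Benjamini-Hochberg adjustment it called 2214 and 450 on log2 signal, with 7 and 5 genes of the set, and 2165 and 419 on linear signal, with 6 and 4. Median centring shifted the median over all probe sets between tissues to -0.23 in PB mice, against -0.11 as deposited. Signals below 50 limit Elovl3, Mogat1, Pnpla3, Plin5 and Cidec in at least 1 tissue.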
